A study of Mus musculus with 17 samples.

Results

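The genes described here are 10 mouse genes that mark or control the pericentral zone of the liver lobule under Wnt signalling: Glul, Oat, Axin2, Lgr5, Rhbg, Tbx3, Slc1a2, Rnf43, Znrf3 and Rspo3. They were taken by symbol, under a rule that uses no measured value although earlier results of these data were known, and all 10 were found among the 52545 genes of the deposited table. All 10 passed the filter on low values, which left 18624 genes for testing.

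RNA had been sequenced from liver outside tumours in male C57BL/6J mice aged 32 weeks, with 1 library per mouse and 17 mice. Regular diet mice (n = 5) had no treatment. Vehicle mice (n = 6) had a single dose of the liver carcinogen DEN at 100 mg/kg in week 1. They were fed CDA-HFD, a high-fat diet that lacks choline, and had PBS injected into the abdomen weekly for 16 weeks. Antibody mice (n = 6) shared the carcinogen and the diet, but their weekly injection held 500 µg of an antibody to claudin-1 (CLDN1 mAb), a tight junction protein. The regular diet mice had neither carcinogen nor injections, so what each of these adds to the diet cannot be told apart. The labels do not say whether mice shared a cage or litter, so the p-values below measure the spread between these mice. Each library also carries a code number, and the labels do not say what it stands for. Regular diet libraries held codes 31 to 35, and both treated groups held codes within 25 to 30 and 36 to 42. An effect that follows the codes therefore cannot be told apart from a difference from regular diet.

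Hepatocytes around the central vein receive Wnt ligands from the endothelial cells of that vein, and beta-catenin then switches on a pericentral gene programme. R-spondins such as Rspo3 strengthen the signal through the receptors Lgr4 and Lgr5, by removing the ubiquitin ligases Rnf43 and Znrf3 that would otherwise clear Frizzled receptors from the cell surface. The programme takes up the ammonia and glutamate left over from the periportal urea cycle and turns them into glutamine, with Glul, Oat, Slc1a2 and Rhbg among its parts. Periportal hepatocytes hold the urea cycle, gluconeogenesis and the liver glutaminase Gls2.

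Depth, estimated from the worth of 1 fragment in each library, ran from 27.7 to 59.5 M fragments. The deposited totals had a mean ± SD of 54.8 ± 11.1 M for the 5 regular diet libraries, 35.4 ± 5.53 M for the 6 vehicle libraries and 39.9 ± 3.43 M for the 6 antibody libraries. Regular diet replicate 1 stood apart, at 74.6 M against 48.2 to 51.2 M in the other 4. Members' differences in vehicle that rest on it are given with and without it. Hepatocyte markers, used as a check of the tissue, were abundant in all groups but lower in vehicle. Their median log2 level was 17.8 ± 0.44 in regular diet, 16.2 ± 0.64 in vehicle and 16.8 ± 0.31 in antibody. Alb was listed at 0 in all libraries, a value that may be an estimate that failed. In bulk tissue, fewer cells of a type and less RNA per cell cannot be told apart.

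Promoter sequences are shown for 4 genes, chosen by how they moved between the 12 treated mice. Glul, Slc1a2 and Oat moved together, whereas Axin2 did not move detectably with Glul over all 12 (r = 0.34). For Axin2, r was 0.25 within library codes 25 to 30 and 0.90 within 36 to 42, and neither was tested. Each run is the 250 bases before the transcription start in RefSeq on GRCm38.p6, read 5′ to 3′ on the strand of the gene. Capitals mark the Wnt response motif searched, CTTTGA or CTTTGT on either strand; the motifs share all but their last letter, and no base was counted for both. The window of Glul is chr1:153899679-153899928 on the plus strand, and that of Slc1a2 is chr2:102706188-102706437 on the plus strand. Those of Oat and Axin2 are chr7:132576399-132576648 on the minus strand and chr11:108920099-108920348 on the plus strand.
Glul: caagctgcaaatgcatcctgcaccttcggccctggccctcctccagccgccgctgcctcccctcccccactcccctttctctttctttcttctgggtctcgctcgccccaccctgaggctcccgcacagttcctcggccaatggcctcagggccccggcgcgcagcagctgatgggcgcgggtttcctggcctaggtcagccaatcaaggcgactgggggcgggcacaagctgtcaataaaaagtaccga
Slc1a2: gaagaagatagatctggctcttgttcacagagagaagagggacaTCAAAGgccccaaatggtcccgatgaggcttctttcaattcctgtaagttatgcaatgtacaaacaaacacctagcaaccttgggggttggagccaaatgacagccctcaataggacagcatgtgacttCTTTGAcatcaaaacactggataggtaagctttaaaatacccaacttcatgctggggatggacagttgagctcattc
Oat: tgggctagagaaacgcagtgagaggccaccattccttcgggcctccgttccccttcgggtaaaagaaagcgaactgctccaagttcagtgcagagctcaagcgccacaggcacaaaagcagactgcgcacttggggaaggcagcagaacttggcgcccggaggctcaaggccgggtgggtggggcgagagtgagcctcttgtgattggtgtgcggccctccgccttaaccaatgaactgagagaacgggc
Axin2: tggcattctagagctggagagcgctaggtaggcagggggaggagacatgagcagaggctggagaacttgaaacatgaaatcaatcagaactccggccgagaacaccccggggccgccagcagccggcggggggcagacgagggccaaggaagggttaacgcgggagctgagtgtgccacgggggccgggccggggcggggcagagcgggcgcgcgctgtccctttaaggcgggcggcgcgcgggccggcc

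Of these windows, only that of Slc1a2 held the motif, with 2 matches, 206 and 77 bases before the start. Its window lies inside the annotated gene, before a start downstream of the first. The same motif was in 27.6% of all 32851 promoter windows of this length, so a match is common. A window without it says only that these letters are absent from it. Promoters of 5 of the 10 genes were in the table; that of Rnf43, the fifth, held no motif in either of its windows.

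Glul encodes glutamine synthetase, the enzyme that makes glutamine in the hepatocytes next to the central vein (chromosome 1, 153899944 to 153909723, GRCm38, plus strand). In regular diet it was at 47665, 38713, 53019, 30407 and 50311 normalized counts. Vehicle mice ran from 28550 to 68382 with a median of 39833, and antibody mice from 38909 to 95476 with a median of 80150. The vehicle and regular diet ranges overlapped fully, while 5 of 6 antibody mice stood above every regular diet mouse. Glul in vehicle did not pass against regular diet (log2 fold change -0.06 ± 0.28, SE; limma adjusted p = 0.877).

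Oat encodes ornithine aminotransferase, which turns ornithine towards glutamate in the same cells (chromosome 7, 132557478 to 132576398, minus strand). Regular diet values of Oat were 47098, 58648, 57289, 63080 and 45225 normalized counts. In vehicle the range was 8588 to 31909 with a median of 14478, and antibody mice from 14067 to 38221 with a median of 25742. Every mouse of both treated groups stood below every regular diet mouse. Oat fell in vehicle (log2 fold change -1.72 ± 0.33; adjusted p = 0.000308) and was lower in antibody mice at -1.08 ± 0.33 (adjusted p = 0.0149). The antibody call for Oat ended at the same total per library (-0.64; adjusted p = 0.0836), although not there without regular diet replicate 1 (-0.80; adjusted p = 0.0311). It also ended with quantile normalization (-0.44, limma adjusted p = 0.223) and at the same hepatocyte marker level (-0.08, limma adjusted p = 0.807). In that last setting the median over all genes was 0.98.

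Rhbg encodes an ammonium transporter of pericentral hepatocytes (chromosome 3, 88242874 to 88254709, minus strand). Regular diet mice had 1157, 64.5, 267, 201 and 233 normalized counts of Rhbg, the first of them in the replicate that stood apart. Vehicle mice ran from 303 to 1554 with a median of 801, and antibody mice from 621 to 2472 with a median of 1721. Apart from that 1 regular diet mouse, no regular diet mouse reached the treated ranges. Rhbg rose in vehicle by 1.60 ± 0.56 on the log2 scale (adjusted p = 0.025), and by 2.15 without regular diet replicate 1 (adjusted p = 0.00112). The call for Rhbg in vehicle ended without regular diet replicate 2 (1.11; adjusted p = 0.086), regular diet replicate 4 (adjusted p = 0.0523), vehicle replicate 2 (adjusted p = 0.0559) or vehicle replicate 5 (adjusted p = 0.0513). Quantile normalization ended it too (1.16; adjusted p = 0.0935), as did a fit of these groups alone (adjusted p = 0.0509). In antibody mice Rhbg was higher than in regular diet by 2.60 ± 0.56 (adjusted p = 0.00127).

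The gene model Gm38392 shares exons with Rhbg on the same strand, and its mean was 104 normalized counts in regular diet, 154 in vehicle and 560 in antibody. With Gm38392 added, Rhbg rose in vehicle by 1.24 ± 0.41 (adjusted p = 0.0186) and in antibody against regular diet by 2.41 ± 0.41 (adjusted p = 0.000154).

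Slc1a2 encodes the glutamate transporter GLT-1, which brings glutamate into pericentral hepatocytes (chromosome 2, 102658659 to 102790784, plus strand). It was at 5316, 7614, 8037, 6517 and 8167 normalized counts in regular diet. In vehicle Slc1a2 spanned 2530 to 7718 with a median of 3802, and antibody mice from 5071 to 14072 with a median of 9280. In vehicle, 3 mice lay between 2530 and 2688, lower than any mouse of the other groups. The Slc1a2 difference of vehicle from regular diet was -0.79 ± 0.33 and did not pass (adjusted p = 0.055). It passed without regular diet replicate 1 (-0.89; adjusted p = 0.0401), without vehicle replicate 1 (-0.97; adjusted p = 0.0163), without vehicle replicate 2 (-0.94; adjusted p = 0.0261), with median-ratio size factors (-0.86; adjusted p = 0.0393) and with array weights (-1.30; adjusted p = 0.000243). At the same hepatocyte marker level Slc1a2 passed as higher (0.78, limma adjusted p = 0.0289), but below the median of 1.58 over all genes.

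Tbx3, a T-box transcription factor and beta-catenin target, is on chromosome 5 (119670669 to 119684724, plus strand). Regular diet mice had 1164, 1601, 2170, 1168 and 2079 normalized counts of Tbx3. In vehicle Tbx3 spanned 383 to 1465 with a median of 601, and antibody mice from 587 to 1477 with a median of 923. Vehicle replicate 1 lay within the regular diet range and the other 5 vehicle mice below it. Tbx3 fell in vehicle by -1.26 ± 0.34 (adjusted p = 0.00523), although not once all libraries were brought to 1 total (-0.63; adjusted p = 0.114). At 1 total without regular diet replicate 1 it passed (-0.86, limma adjusted p = 0.0314). With the same hepatocyte marker level Tbx3 lay at 0.31 (limma adjusted p = 0.425), where the median over all genes was 1.58. In antibody mice Tbx3 differed from regular diet by -0.77 ± 0.34 and did not pass (adjusted p = 0.0859). Its antisense partner Tbx3os1 shares exons with it and averaged 413, 177 and 207 normalized counts in the 3 groups, and without a stated strand setting the 2 genes cannot be separated.

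Lgr5, the R-spondin receptor and itself a target of the pathway, is on chromosome 10 (115450311 to 115587780, minus strand). In regular diet its values were 197, 617, 501, 406 and 661 normalized counts. Vehicle mice ran from 167 to 477 with a median of 338, and antibody mice from 327 to 785 with a median of 662. The lowest regular diet value was again that of replicate 1. Lgr5 in vehicle differed by -0.54 ± 0.32 and did not pass (adjusted p = 0.178), but fell without regular diet replicate 1 (-0.82; adjusted p = 0.02) and when array weights were used (-1.01; adjusted p = 0.00119). Quantile normalization called Lgr5 as well (adjusted p = 0.025). At the same hepatocyte marker level Lgr5 passed as higher (1.03, limma adjusted p = 0.019), but below the median of 1.58 over all genes.

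Rnf43 and Znrf3 encode the ubiquitin ligases that clear Frizzled receptors, and both lie on chromosome 11 (87662722 to 87735539, plus strand, and 5276324 to 5444847, minus strand). Rnf43 was at 735, 1659, 1647, 1442 and 1431 normalized counts in regular diet, 745 to 1564 in vehicle with a median of 976, and 1244 to 2395 in antibody with a median of 1684. Znrf3 was at 179, 690, 606, 574 and 672 in regular diet, 468 to 798 in vehicle with a median of 646, and 485 to 892 in antibody with a median of 661. For both genes regular diet replicate 1 was far below the other 4, and the remaining ranges overlapped. Rnf43 in vehicle differed by -0.37 ± 0.24 (adjusted p = 0.213), and fell without that replicate (-0.59; adjusted p = 0.0268) and with array weights (-0.77; adjusted p = 0.000627). At the same hepatocyte marker level Rnf43 passed as higher (1.19, limma adjusted p = 0.00448), but below the median of 1.58 over all genes. Znrf3 differed by 0.34 ± 0.29 (adjusted p = 0.339), and by -0.02 without it (adjusted p = 0.924).

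Axin2, the feedback scaffold of the beta-catenin destruction complex, is on chromosome 11 (108920349 to 108950783, plus strand). Its regular diet values were 170, 301, 423, 315 and 429 normalized counts, with 309 to 477 in vehicle (median 360) and 231 to 625 in antibody (median 397). The groups of Axin2 overlapped, and the vehicle difference was 0.28 ± 0.27 (adjusted p = 0.401), and 0.06 without regular diet replicate 1 (adjusted p = 0.84). Rspo3, the R-spondin ligand among the 10, is on chromosome 10 (29452416 to 29535867, minus strand). It was at 253, 282, 281, 271 and 296 normalized counts in regular diet, a narrow range. Vehicle mice ran from 221 to 518 with a median of 378, and antibody mice from 121 to 417 with a median of 281. The vehicle and antibody ranges of Rspo3 enclosed the regular diet range, and its difference in vehicle was 0.35 ± 0.27 (adjusted p = 0.29).

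**Figure D1:**
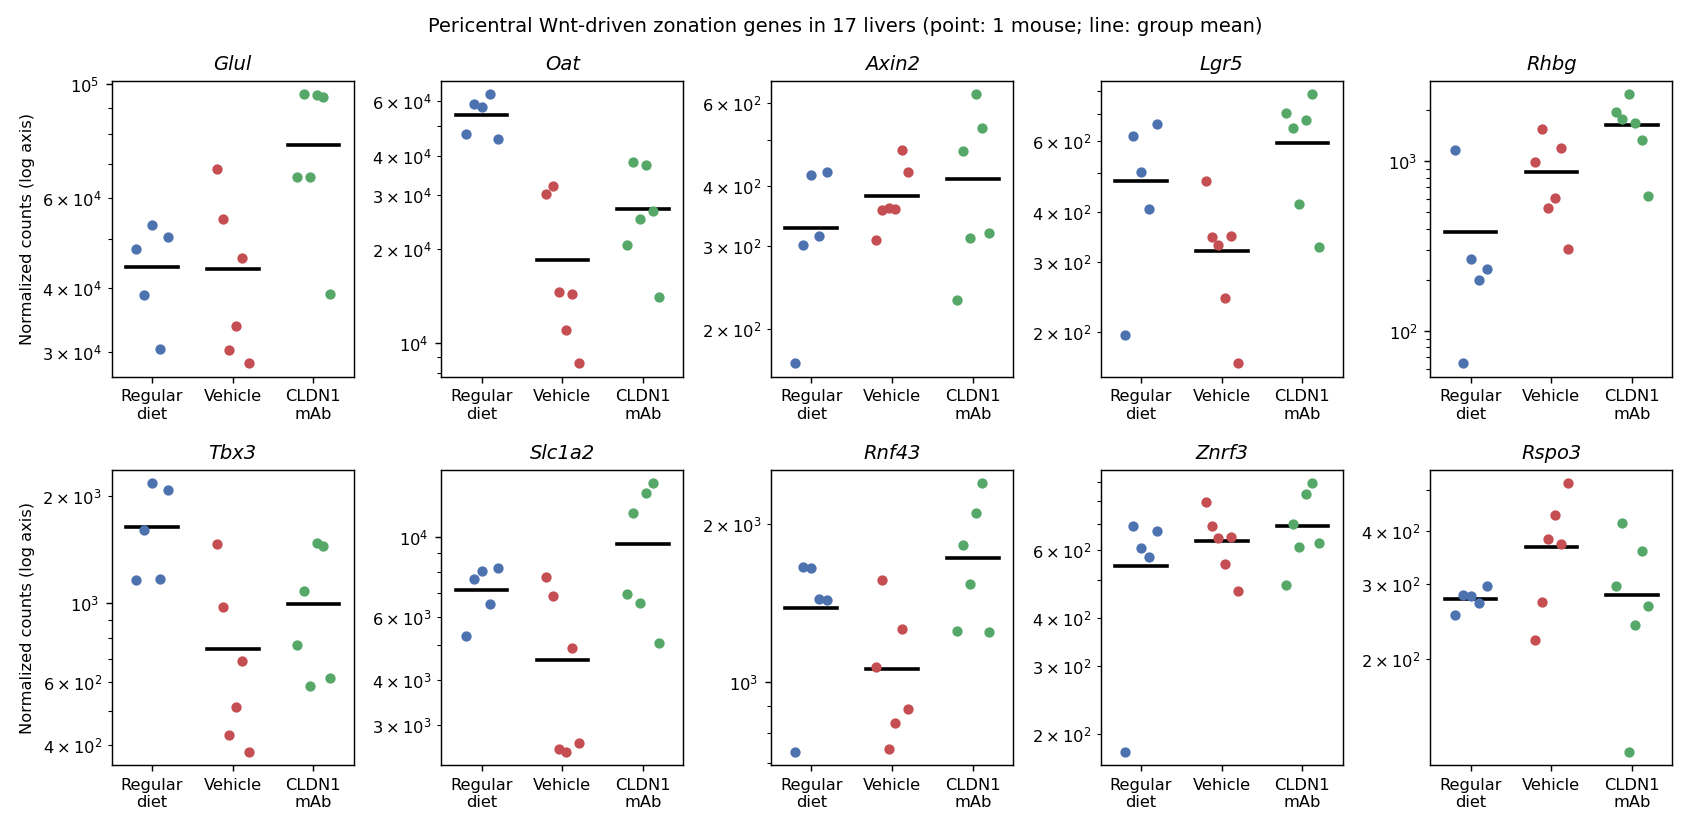
Normalized counts of the 10 genes in each mouse (log axis), by group, with the group mean as a line. Oat in the 12 treated mice lies below every regular diet mouse, from 8588 to 38221 against 45225 to 63080, and regular diet replicate 1 (the first blue point) is the low value of Axin2, Lgr5, Rnf43 and Znrf3 and the high value of Rhbg.

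In vehicle against regular diet, 1 of the 10 genes rose (Rhbg), 2 fell (Oat and Tbx3) and 7 did not pass. Of all genes tested, 50.5% passed in this comparison, 29.8% higher and 20.7% lower, so the share of members called was below the share over all genes. The members' median difference was -0.22, against 0.04 over all genes. Without regular diet replicate 1, 1 rose and 5 fell, as Lgr5, Slc1a2 and Rnf43 joined Oat and Tbx3, against 32.0% higher and 25.4% lower over all genes in that fit. The enzyme, transporter and receptor genes did not all move in the same direction, and the direction of several depended on the scaling of the libraries.

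With the same total per library, the median over all genes shifted to 0.65, and 5 members were higher and 1 lower, against 50.3% higher and 6.79% lower over all genes. Glul was then higher by 0.56 (adjusted p = 0.046), with Axin2 (0.90), Znrf3 (0.96), Rspo3 (0.98) and Rhbg (2.22), while Oat was lower (-1.10; adjusted p = 0.0034). Against that shift of 0.65, Glul at 0.56 was near the median gene. At the same total without regular diet replicate 1, Rhbg (2.66) and Znrf3 (0.49) were higher and Oat (-1.26) and Tbx3 (-0.86) lower, against 49.2% higher and 9.70% lower over all genes. Glul (0.48; adjusted p = 0.0981), Axin2 (0.57; adjusted p = 0.0866) and Rspo3 (0.83; adjusted p = 0.0527) then did not pass. With each library set to the same hepatocyte marker level the median gene shifted to 1.58, and 8 members were higher and 0 lower, against 80.5% higher and 1.41% lower over all genes. Oat was then at -0.15 (adjusted p = 0.619) and Tbx3 at 0.31 (adjusted p = 0.425), the 2 that did not pass. Hepatocyte markers moved with this comparison: 17 of 19 tested fell and 0 rose (16 of 18 without Trf, some of whose estimates may have failed). Their summed level, without Alb and Trf, was 3242280 to 8931990 in regular diet, 898247 to 3622750 in vehicle and 2067110 to 3816140 in antibody. Their part in the members' differences was not tested beyond that scaling.

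**Figure D2:**
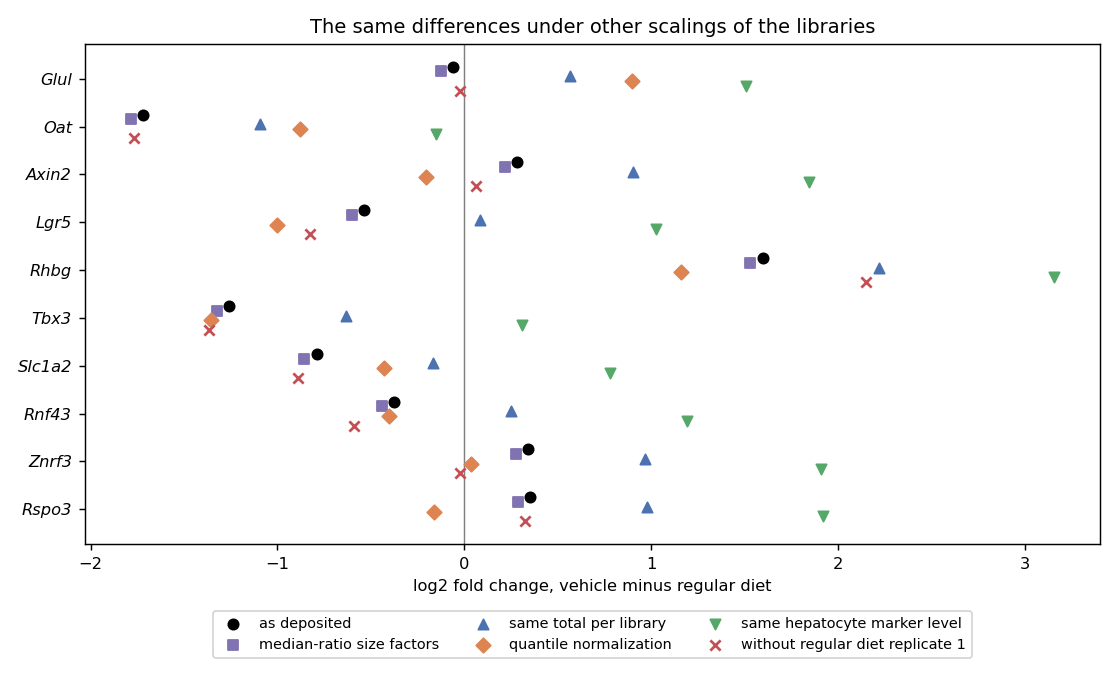
Log2 fold change of vehicle against regular diet for each gene, under the deposited values, 4 other scalings and without regular diet replicate 1. Oat stays below 0 and Rhbg above 0 under all 6 settings drawn, while Glul runs from -0.13 to 1.51 and Slc1a2 from -0.89 to 0.78. At the same hepatocyte marker level the median over all genes was 1.58.

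In antibody against vehicle, 0 of the 10 genes passed, and 0 of all 18624 genes did (0.00%; 1391 genes, or 7.47%, had an unadjusted p under 0.05). No count model was run, and limma without the filter called 2 genes, neither of them a member. Of the members, 9 of 10 lay above 0, against 44.3% of all genes, with a median of 0.68 against -0.05 over all genes. Slc1a2 was at 1.13 ± 0.32, Lgr5 at 0.90 ± 0.31, Glul at 0.81 ± 0.27 and Rnf43 at 0.71 ± 0.23, each with a limma adjusted p = 0.659. For Slc1a2, Lgr5 and Rnf43 all 6 antibody mice were above the vehicle mean, and for Glul 5 of 6 were, but in each of these genes the groups overlapped. Rhbg stood at 1.01 ± 0.54, Oat at 0.64 ± 0.31 and Tbx3 at 0.49 ± 0.33, none of them past the threshold. Znrf3 (0.12 ± 0.27) and Axin2 (0.05 ± 0.25) were near 0, and Rspo3 was the 1 gene below 0 (-0.42 ± 0.26).

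These antibody differences depended on how libraries were weighted. With array weights, which gave vehicle replicates 1 and 2 weights of 0.175 and 0.383, 5310 genes passed (13.5% higher and 15.0% lower), with 7 members higher and 1, Rspo3, lower. Slc1a2 was then higher by 1.71 (adjusted p = 0.00366) and Glul by 1.17 (adjusted p = 0.00533). Vehicle replicates 1 and 2 had the highest vehicle values of Glul (68382 and 54573), Oat (30154 and 31909), Tbx3 (1465 and 978) and Slc1a2 (7718 and 6832). Leaving out either library with equal weights called no member. All 19 hepatocyte markers tested lay above 0 in antibody against vehicle, against 44.3% of all genes. Their median was 0.56 (0.54 over 18 without Trf), and none passed. With the same hepatocyte marker level the members ran from -0.99 to 0.56, and the median over all genes was -0.61. In that setting Rspo3 (-0.99) lay below that median and the other members above it. The part of the hepatocyte markers in these differences was not tested beyond that scaling.

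In antibody against regular diet, 2 of the 10 genes rose (Glul and Rhbg), 1 fell (Oat) and 7 did not pass. Of all genes tested, 38.9% passed here, 24.8% higher and 14.1% lower. Glul was higher by 0.75 ± 0.28 (adjusted p = 0.0445), in 5 of 6 antibody mice above the regular diet mean. That call for Glul was weak. It ended with median-ratio size factors (adjusted p = 0.0656), and testing all genes without the filter ended it as well (adjusted p = 0.0768). Leaving out regular diet replicate 2, 4 or 5, or antibody replicate 1, 2, 3, 4 or 5, also ended it (adjusted p up to 0.123). The call for Oat did not hold under 3 scalings given above. Both comparisons with regular diet share those 5 mice, so the members' values in them are not independent.

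**Figure D3:**
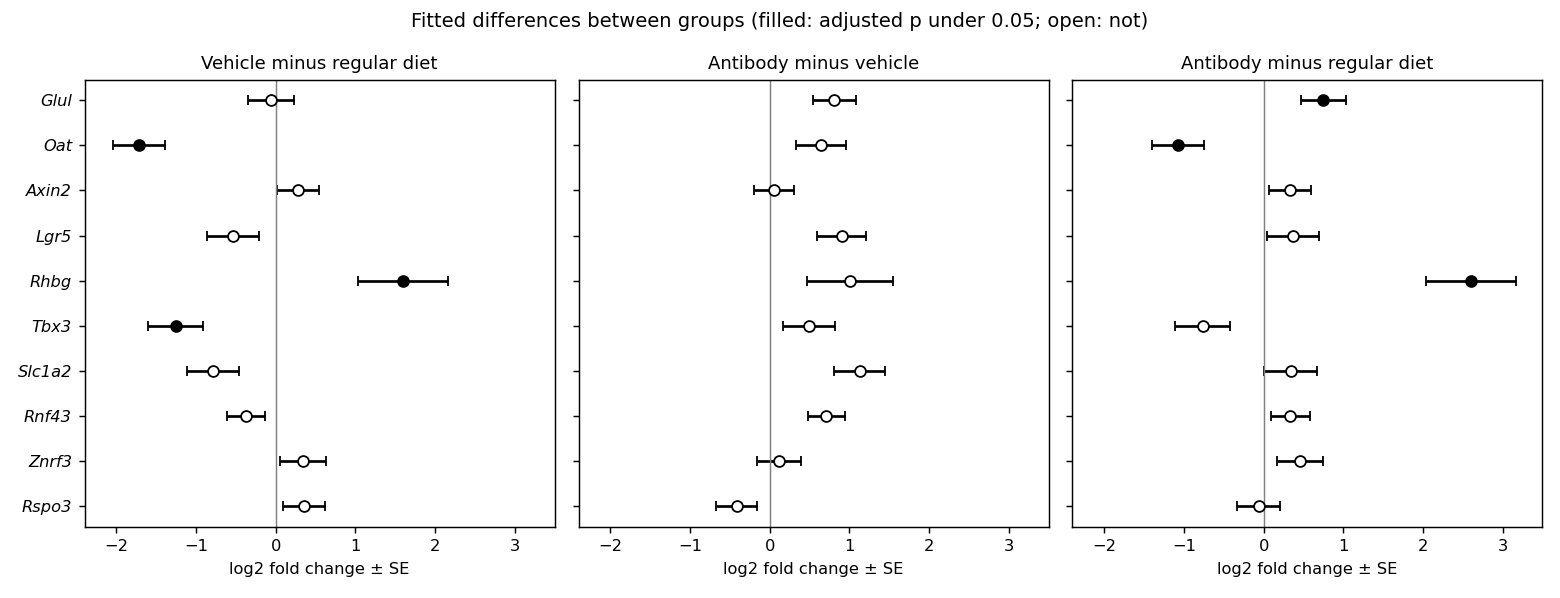
Log2 fold change with its SE for each gene in the 3 comparisons, filled where the adjusted p was under 0.05. Rhbg and Oat are filled in both comparisons with regular diet. No gene is filled in antibody minus vehicle, where 9 of 10 lie above 0, against 44.3% of all genes.

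Levels per kilobase of exon ordered the genes by abundance. In regular diet Oat led at 22995 ± 3276 normalized counts per kb (SD, n = 5), above Glul at 13248 ± 2804 with no overlap. Slc1a2 followed at 543 ± 91.7, then Tbx3 (247), Rnf43 (211) and Rhbg (198), whose ranges overlapped, and Rspo3 (89.5), Znrf3 (69.0), Axin2 (59.5) and Lgr5 (46.4). The Rhbg mean rested on regular diet replicate 1, at 597 per kb, and was 98.7 without it. In vehicle Glul led at 13117 ± 4735 with Oat second at 7810 ± 4249, and their ranges overlapped. Rhbg moved from the sixth place in regular diet to the third, at 446 ± 242 in vehicle and 846 ± 322 in antibody. Antibody mice had Glul at 22874 ± 6954 and Oat at 11432 ± 4005 per kb, and Lgr5 was lowest in all 3 groups.

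Ratios of 2 genes within a library are not moved by its scaling, and 4 were computed after the values had been seen, giving 12 tests. Glul over Oat was 0.802 in regular diet (geometric mean, range 0.482 to 1.11), 2.53 in vehicle (1.71 to 3.32) and 2.84 in antibody (2.50 to 3.56). The treated ranges lay wholly above that of regular diet (two-sided exact permutation p = 0.00216 for vehicle, the smallest that 462 regroupings allow; adjusted p = 0.00519). Antibody and vehicle did not differ detectably in this ratio (exact permutation p = 0.381).

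Glul over Gls2, the liver glutaminase of periportal cells, was 1.60 in regular diet (range 0.787 to 2.58), 9.32 in vehicle (4.70 to 19.7) and 8.90 in antibody (6.17 to 16.9). Again every treated mouse was above every regular diet mouse (exact permutation p = 0.00216; adjusted p = 0.00519), with no detectable antibody difference (exact permutation p = 0.892). Gls2 itself fell in vehicle by -2.60 ± 0.46 (adjusted p = 0.000138). Glul over Cyp2e1, the ethanol-oxidizing cytochrome P450 of the wider pericentral zone, was 0.160 in regular diet (0.152 to 0.169), a narrow range, and 0.254 in vehicle (0.191 to 0.330) (exact permutation p = 0.00433; adjusted p = 0.00866). Rhbg over Glul was 0.00574 in regular diet and 0.0182 in vehicle (exact permutation p = 0.0238; adjusted p = 0.0357), but without regular diet replicate 2 the p was 0.0524.

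Between the 12 treated mice, values were compared after subtracting each group's mean. Glul moved with Slc1a2 (Pearson r = 0.95, permutation p = 0.00015; Spearman rho = 0.94, permutation p = 0.0004; adjusted over 19 relations, p = 0.00095 and p = 0.0038). Without the 2 mice farthest in Glul, r was 0.96, and within library codes 25 to 30 and 36 to 42 it was 0.99 and 0.97. Tbx3 (r = 0.91; rho = 0.85), Oat (r = 0.89; rho = 0.93), Lgr5 (r = 0.84; rho = 0.71), Rnf43 (r = 0.78; rho = 0.78), Rhbg (r = 0.73; rho = 0.71) and Znrf3 (r = 0.71; rho = 0.73) moved with Glul in the same way. Their adjusted permutation p-values for r ran from 0.00095 to 0.0287. Without the 2 farthest mice these 6 had r from 0.63 to 0.94. Within the lower codes r was 0.54 to 0.98, and within the higher codes 0.87 to 0.99. The relation of Glul with Rhbg did not hold without antibody replicate 6 (r = 0.59, permutation p = 0.13), and that with Znrf3 not without vehicle replicate 1 (r = 0.63, permutation p = 0.055). Axin2 (r = 0.34, permutation p = 0.319; rho = 0.23, permutation p = 0.469) and Rspo3 (r = -0.21, permutation p = 0.528; rho = -0.29, permutation p = 0.365) did not move detectably with Glul over the 12 mice. For Axin2, r was 0.47 without the 2 farthest mice, 0.25 within the lower codes and 0.90 within the higher. The last was inside the range of the other genes there. Neither r within a range of codes nor the difference between the ranges was tested. For Rspo3, r was -0.05 without the 2 farthest mice, -0.06 within the lower codes and -0.07 within the higher.

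**Figure D4:**
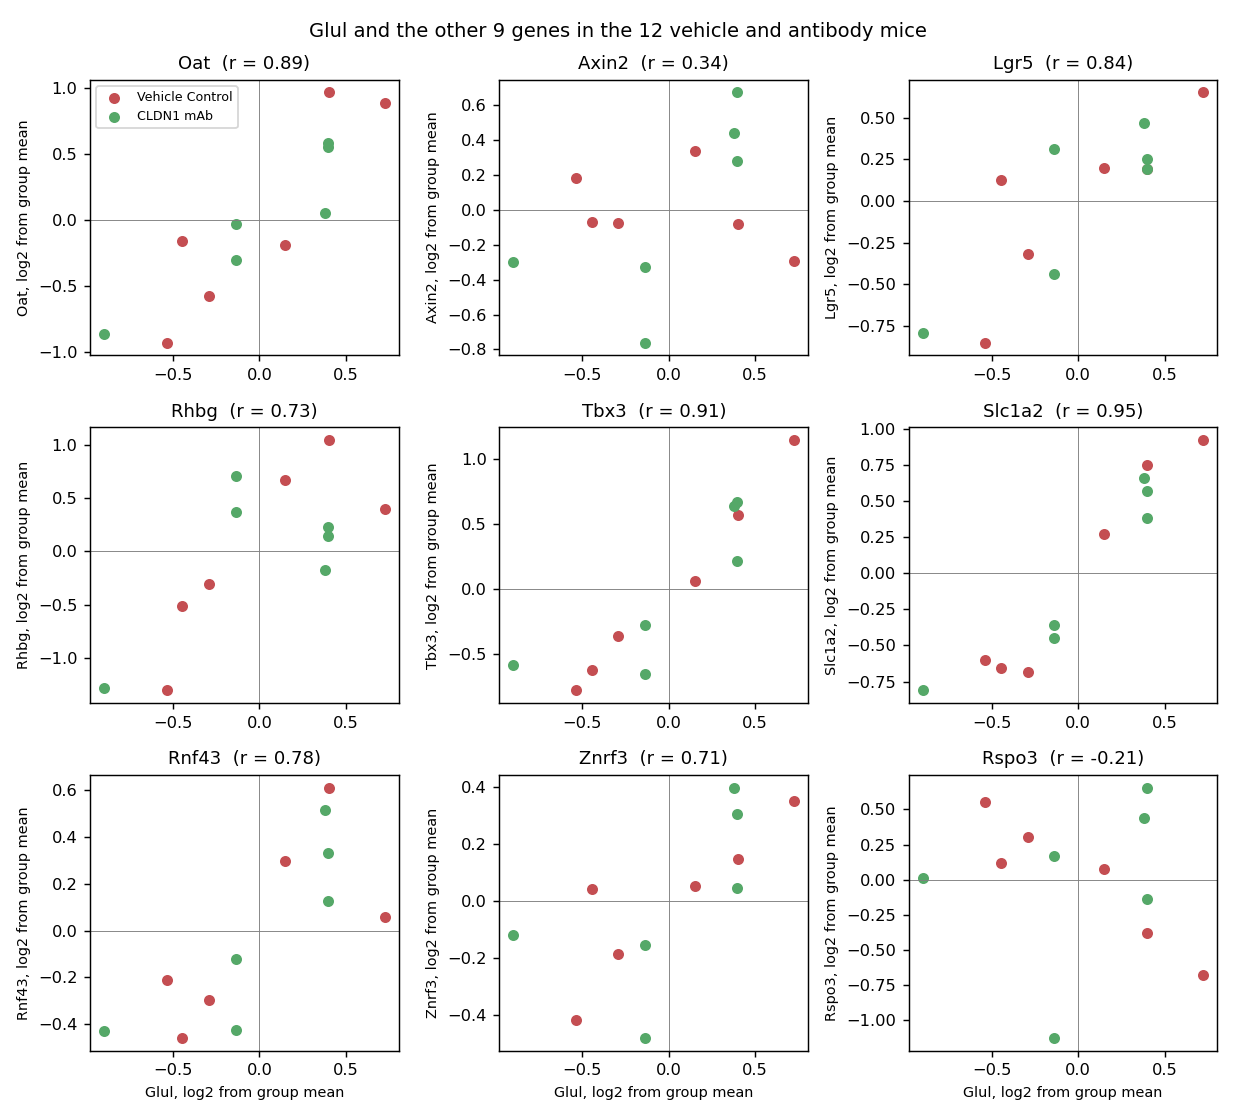
Each gene against Glul in the 12 vehicle (red) and antibody (green) mice, as log2 differences from the group mean. Slc1a2, Tbx3 and Oat follow Glul closely with r from 0.89 to 0.95. Over all 12 mice Axin2 (0.34) and Rspo3 (-0.21) do not. For Axin2, r is 0.25 within library codes 25 to 30 and 0.90 within 36 to 42, neither of them tested.

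The hepatocyte marker median moved between the same mice with Rhbg (r = 0.94, permutation p = 8e-05, adjusted p = 0.00095) and with Glul (r = 0.73, permutation p = 0.0124, adjusted p = 0.0287). For Rhbg, rho was 0.92 and r was 0.92 without the 2 farthest mice, 0.89 within the lower codes and 0.96 within the higher. For Glul, rho was 0.82 and r was 0.58 without the 2 farthest mice, 0.75 and 0.70 within the codes, and the relation did not hold without antibody replicate 6 (permutation p = 0.0775). Oat (r = 0.75, rho = 0.71) and Lgr5 (r = 0.67, rho = 0.65) also passed with the marker median (permutation adjusted p = 0.0287 for r). Without the 2 farthest mice their r was 0.55 and 0.30, and within the lower and higher codes 0.71 and 0.78 for Oat and 0.37 and 0.80 for Lgr5. Neither held without vehicle replicate 6 or antibody replicate 6 (permutation p up to 0.077 for Oat and 0.111 for Lgr5). For the other 6 genes the adjusted permutation p for r ran from 0.0561 (Slc1a2, r = 0.68) to 0.57 (Axin2, r = -0.14). Among 12785 genes compared, the 5 most like Glul by r over the 12 mice were Npr2 (0.96), Slc1a2 (0.95), Tomm40l (0.94), Slc16a10 (0.94) and Acss2 (0.94). Tbx3 ranked 11, Oat 23, Lgr5 133, Rnf43 387, Rhbg 752 and Znrf3 927, whereas Axin2 ranked 3673 and Rspo3 7075.

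The other genes of the pathway were taken by role, and their counts in vehicle are to be read against 29.8% of all genes higher and 20.7% lower, with a median of 0.04. Of 24 genes of Wnt ligands, their secretion and other R-spondins, 14 were tested. In vehicle 8 rose (57.1%) and 2 fell (14.3%), with a median of 1.34. Wnt10a and Wnt7b, among those that rose, spanned under 0.1 to at least 100 normalized counts across libraries. As for Trf, some of their estimates may have failed. Those that fell were Wnt2 (147 ± 34.8 to 65.5 ± 44.4; -1.34 ± 0.44, adjusted p = 0.0168) and Wnt9b (56.3 ± 22.2 to 27.5 ± 7.77; -0.96 ± 0.36, adjusted p = 0.0344), the ligands known from central vein endothelium. At 1 total for all libraries neither Wnt2 (limma adjusted p = 0.201) nor Wnt9b (limma adjusted p = 0.451) passed. The Wnt9b call also ended with no filter (adjusted p = 0.0627), with the replicate block (adjusted p = 0.0723), and when regular diet replicate 3 or 5, or vehicle replicate 1, 3 or 6, was left out (adjusted p up to 0.0942). Wls, the carrier that brings Wnts to the cell surface, rose by 2.45 ± 0.35. Of 14 general endothelial markers 4 fell (28.6%) and 1 rose, with a summed level of 20246 to 29287 in regular diet, 6054 to 31392 in vehicle and 8094 to 21671 in antibody, so the vehicle range enclosed that of regular diet. Of 11 genes of central vein endothelium, a list that holds Wnt2, Wnt9b and Rspo3 too, 2 rose and 2 fell with a median of 0.35. The 2 that fell were Wnt2 and Wnt9b. Those that rose were Fabp4, a fatty acid binding protein also made by other cells (2.49 ± 0.51, adjusted p = 0.000544), and Thbd, which encodes thrombomodulin (1.06 ± 0.42, adjusted p = 0.041). The Thbd call ended without regular diet replicate 1 (adjusted p = 0.0883) and in 8 other settings. The summed level of that list was 2675 to 3253 in regular diet, 2214 to 12833 in vehicle and 2195 to 4677 in antibody. The part of endothelial cells in these differences was not tested.

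Of 16 Wnt receptor genes tested, 8 rose (50%) and 2 fell (12.5%), with a median of 0.23. Lgr4, the R-spondin receptor that hepatocytes share with Lgr5, fell from 2655 ± 885 to 1256 ± 537 (-1.08 ± 0.29), and Lrp5, the co-receptor, fell by 1.02 on the log2 scale. With each library left out, Lgr4 ran from -1.38 to -0.94 (limma adjusted p up to 0.0157). At 1 total for all libraries, Lgr4 (adjusted p = 0.223) and Lrp5 (adjusted p = 0.382) did not pass. At the same hepatocyte marker level Lgr4 (0.48), Lrp5 (0.55), Wnt2 (0.21) and Wnt9b (0.56) all lay above 0. They lay below the median of 1.58 over all genes, of which 80.5% were higher in that setting. Of 25 intracellular components, 5 rose (20%) and 4 fell (16%), both below the shares over all genes, and their median was 0.09. Ctnnb1, which encodes beta-catenin, was at 8256 ± 2918 normalized counts in regular diet and 8574 ± 2324 in vehicle and did not pass (adjusted p = 0.765). Of 15 inhibitors tested, 9 rose (60.0%) and 2 fell (13.3%), with a median of 2.24. Dkk3 (3.52) and Frzb (3.22) rose, whereas Notum, the Wnt deacylase made by pericentral hepatocytes, fell from 1288 ± 443 to 832 ± 288 (-0.64 ± 0.26, adjusted p = 0.0493). The Notum call ended without regular diet replicate 1 (adjusted p = 0.128) and, among other settings, at 1 total for all libraries (adjusted p = 0.94). Of 14 other Wnt targets 10 rose (71.4%) and 1, Notum, fell (7.14%), with a median of 1.89. That list is not separate from the others. It shares Nkd1, Notum, Apcdd1 and Dkk1 with the inhibitors, Tcf7 and Lef1 with the intracellular components, and Sox9 with the bile duct markers. Ccnd1, the cyclin that drives entry into the cell cycle, rose by 3.18 ± 0.23 and the adhesion receptor gene Cd44 by 3.23 ± 0.30. Markers of other cells rose in the same comparison. All 11 bile duct cell markers rose, with a summed level of 3800 to 5432 normalized counts in regular diet, 46893 to 105089 in vehicle and 42220 to 82033 in antibody, and none was at 0 throughout. Of 15 stellate cell and myofibroblast markers 10 rose and 0 fell (15209 to 24214, 39896 to 157529 and 35463 to 111571). Leukocyte markers moved too. All 6 neutrophil markers tested rose (summed level 147 to 708 in regular diet, 1096 to 3305 in vehicle and 980 to 1564 in antibody). Of 10 lymphocyte markers 6 rose and 0 fell (443 to 902, 955 to 2061 and 836 to 1864). Of 12 macrophage markers 6 rose and 3 fell (12982 to 36086, 60533 to 245539 and 95819 to 172651). The part of these cells in the differences of these lists was not tested. In antibody against vehicle no gene of these lists passed.

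Other zonation genes of the lobule were set beside the members. Of 30 further pericentral genes, 16 fell and 3 rose in vehicle, with a median of -0.77. Cyp2c29 fell by 5.02 on the log2 scale and Cyp1a2 by 1.18, the latter not with quantile normalization (adjusted p = 0.137) or at the same hepatocyte marker level, where Cyp1a2 lay at 0.39. Gstm3 rose by 2.41. Cyp2e1 did not pass (-0.73 ± 0.37, adjusted p = 0.112). It was lower without vehicle replicate 1 (-0.90, limma adjusted p = 0.0461) and with array weights (-1.09, limma adjusted p = 0.00475). With the same hepatocyte marker level Cyp2e1 was higher (0.84, limma adjusted p = 0.00241). The median over all genes at that marker level was 1.58, above both Cyp1a2 and Cyp2e1. Of 26 periportal genes, 20 fell (76.9%) and 2 rose (7.69%), with a median of -2.22. Among those that fell were Cyp2f2 (-2.69) and G6pc (-4.13). The members' median was -0.22, and that of the 19 hepatocyte markers tested was -1.37 (-1.35 over 18 without Trf). Whether the lists differ was not tested. In antibody against vehicle, the medians were 0.68 for members, 0.70 for the other pericentral genes, 0.74 for periportal genes and 0.56 for hepatocyte markers, and no gene passed.

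**Figure D5:**
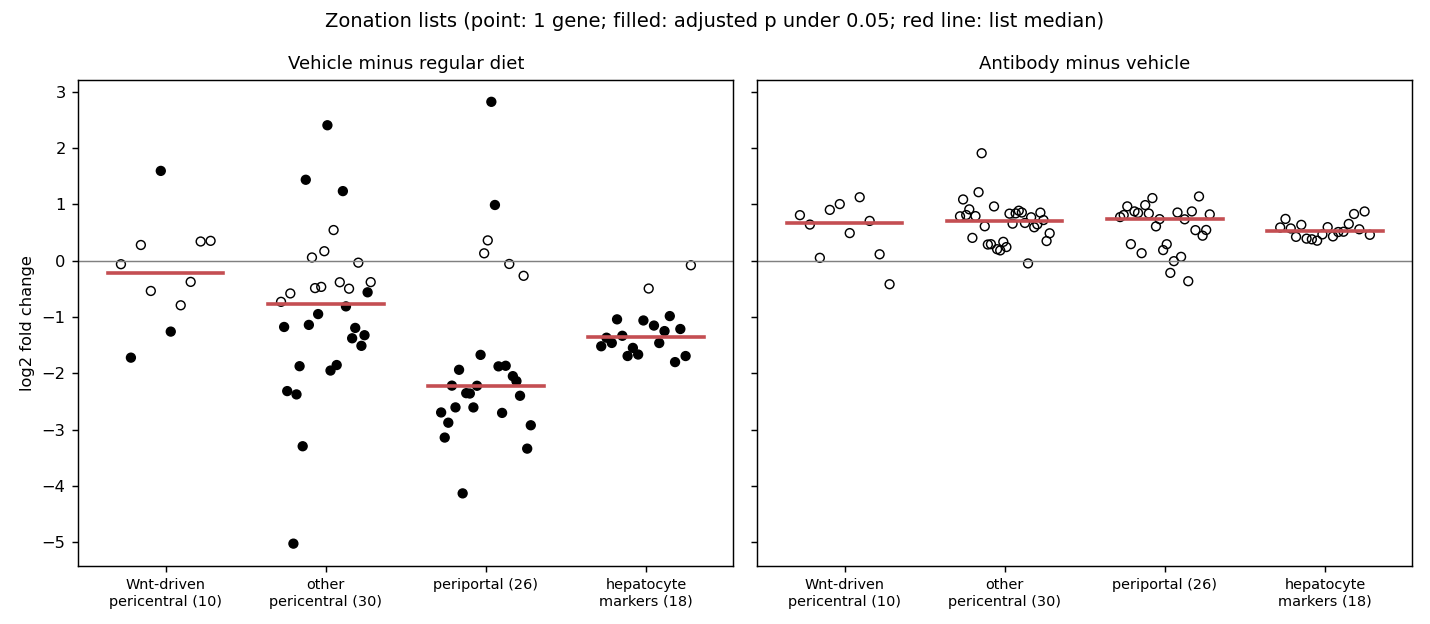
Log2 fold changes of the genes of 4 lists, filled where the adjusted p was under 0.05, with the list median in red (the hepatocyte marker Trf, with failed estimates, is left out). In vehicle minus regular diet the medians run from -0.22 for members to -2.22 for periportal genes, with hepatocyte markers at -1.35. In antibody minus vehicle the list medians lie close together above 0 with no filled point.

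Of 19 glutamine, glutamate and ammonia genes tested, 9 fell (47.4%) and 6 rose (31.6%) in vehicle, against 20.7% and 29.8% of all genes. Slc1a1, among those that rose, spanned under 0.1 to at least 100 normalized counts across libraries, so some of its estimates may have failed. Besides Gls2, the mitochondrial ornithine carrier gene Slc25a15 fell by 2.03 on the log2 scale, and Got1 fell by 1.97. Neither passed at the same hepatocyte marker level (limma adjusted p = 0.0928 and adjusted p = 0.175), where the median over all genes was 1.58. The proline synthesis genes Aldh18a1 (2.73) and Pycr1 (2.48) rose. Rhcg, the relative of Rhbg, was listed at 0 in all libraries.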

How the data were processed

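RNA-seq of 17 mouse livers was analysed from 1 table. The authors deposited normalized signal values per gene and library, made with cuffnorm as its labels say, and Cufflinks 2.2.1 with mm10 per the submitters' processing notes. For the aligner, annotation release, strand and scaling, the methods are not given in the sources used here. Low values were near-whole multiples of 1 step (97.7 to 98.2% within 0.05 of a step), the worth of 1 fragment, and totals over that step gave the estimated depth. The deposited values were taken as normalized, not raw counts, and tiny values stood in place of 0, so no count model was run.

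Genes reaching 10 in 5 or more libraries (18624) entered a limma-trend fit (limma 3.58.1, R 4.3.3) of log2(value + 1), a scale that understates changes of low genes, on group alone over the 17 libraries. P-values are two-sided and adjusted by Benjamini-Hochberg across those genes, with a threshold of 0.05; "rose", "fell" and "passed" refer to it. Coordinates and exon lengths are from GENCODE M21 (GRCm38), promoters from RefSeq. Members and lists were chosen with earlier results of these data known. Named beside the members were up to 3 genes per list and direction, by size of change among those passing with a mean of at least 50, and fixed zonation genes; not all are printed. Likeness used 100000 permutations within groups. Alternatives were other pseudocounts, filters, scalings, weights and blocks, and each library left out. The fit was checked on simulated data.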

Additional observations from a re-analysis of the deposited data

Results flagged for a closer look

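A gap between 1 sample and the others of its group, large against the range of that group, was found in 7 of 78 groups tested; chance gives about 1 in 20. Of these, 6 concerned regular diet replicate 1. It was the highest in Rhbg (1157 normalized counts, the others 64.5 to 267), in the ratio of Rhbg to Glul (0.0243, the others 0.00167 to 0.00659) and in the deposited total (74.6 M, the others 48.2 to 51.2). It was the lowest in Rnf43 (735, the others 1431 to 1659), in Znrf3 (179, the others 574 to 690) and in Lgr4 (1091, the others 2886 to 3210). The last was Wnt2 in vehicle replicate 5, at 151 against 29.2 to 73.3 in the other vehicle mice.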

How the results depend on the processing

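Glul, Oat and the other 8 genes were recomputed under every alternative listed, of which 2 for the members (the same total without regular diet replicate 1, and Gm38392 added to Rhbg) were chosen after seeing the data. For vehicle minus regular diet, 5 members were higher and 1 lower with the same total per library, 8 and 0 at the same hepatocyte marker level (15251 genes called), 2 and 5 with array weights, and 0 higher with only the groups compared. With array weights, 38.4% of all genes were higher and 32.4% lower. The same total without regular diet replicate 1 gave 2 higher. For antibody minus vehicle, array weights gave 7 higher, 1 lower and 5310 genes, and no filter gave 2 genes. For antibody minus regular diet, array weights gave 11344 genes and 2 members lower, against 27.8% of all genes lower. Higher members were 1 with no filter or median-ratio size factors, 4 at the same total and 7 at the same hepatocyte level. Of all genes, 13.8% were higher with no filter and 23.9% with median-ratio size factors. The share was 37.9% at the same total and 55.9% at the same hepatocyte level. Lower members were 0 at the same total, quantile normalization or hepatocyte level, and 2 with only the groups compared. Leaving out each library gave 8486 to 10680 genes, 0 to 1 higher and 2 to 5 lower members for vehicle minus regular diet, 0 to 0 for antibody minus vehicle, and 6342 to 9028 genes, 1 to 2 higher and 1 to 1 lower for antibody minus regular diet. The labels do not say whether replicate numbers pair mice, and this was not tested. Correlations of same-numbered mice ran from -0.34 to 0.66, and those of other mice of different groups from -0.60 to 0.57. With the replicate block, members called were 1 higher and 2 lower, 0, and 2 higher and 1 lower. All genes called were then 9188, 0 and 6971.

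Directions turned as follows for vehicle minus regular diet; the cause was not tested. At the same total: Glul 0.56, Lgr5 0.086, Rnf43 0.25 and Dvl1 0.036, and without regular diet replicate 1 as well Glul 0.48 and Notum 0.042. With quantile normalization: Glul 0.89, Axin2 -0.21, Rspo3 -0.16, Cyp2e1 0.38, Nkd1 -0.13 and Rspo1 -0.70. With array weights: Znrf3 -0.11 and Ctnnb1 -0.036. With the replicate block: Glul 0.082 and Rspo1 -0.18. At the same hepatocyte marker level: Glul 1.51, Lgr5 1.03, Tbx3 0.31, Slc1a2 0.78, Rnf43 1.19, Bcl9l 0.78, Cyp1a2 0.39, Cyp2e1 0.84, Dact2 0.72, Dvl1 0.98, Lgr4 0.48, Lrp5 0.55, Notum 0.92, Tle1 0.93, Wnt2 0.21 and Wnt9b 0.56. The median over all genes at that marker level was 1.58, above each of these. For antibody minus vehicle, Axin2 was -0.13 and Znrf3 -0.068 at the same total. At the same hepatocyte marker level Axin2 was -0.52, Tbx3 -0.080, Znrf3 -0.46, Lgr4 -0.17, Nkd1 -0.32, Wnt2 -0.30 and Wnt9b -0.22. The median over all genes at that marker level was -0.61, below each of these. Nkd1 was -0.046 with array weights. For antibody minus regular diet, Axin2 was -0.063 with quantile normalization, Tbx3 0.23 at the same hepatocyte marker level, and Rspo3 0.38 at the same total, 0.93 at the same hepatocyte marker level and 0.23 at the same total without regular diet replicate 1.

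With each library left out, ranges across 0 were -0.21 to 0.046 for Glul, -0.021 to 0.46 for Znrf3, -0.20 to 0.22 for Ctnnb1 and -0.36 to 0.57 for Rspo1 (vehicle minus regular diet), -0.082 to 0.20 for Axin2 (antibody minus vehicle) and -0.19 to 0.16 for Rspo3 (antibody minus regular diet). The antibody minus vehicle log2 ratios ran from -0.062 to 0.095 for Glul/Cyp2e1 and -0.26 to 0.15 for Glul/Gls2. The likeness of Glul and Rspo3 ran from -0.40 to 0.0076, and that of the hepatocyte marker median and Axin2 from -0.26 to 0.018.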
